A study of Mus musculus with 25 samples.

Results

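The mutant replicates 1 to 10 are 10 of the 25 arrays of the series, chosen by their labels, and were examined for how strongly each gene varied between them and which genes varied together. Each array held total RNA from the mammillary neuroepithelium of an Lhx5 mutant (labelled KO) mouse embryo of strain C57BL/6 at E10.5, hybridised to the Affymetrix Mouse Gene 1.1 ST array. The mutants were homozygous for a hypomorph allele in which loxP sites flank exons 2 to 4 of Lhx5 and no Cre recombination was applied. The effect of this allele on the transcript was not measured here, so the Lhx5 level was not used to check the labels. Mutant replicates 11 to 13, which carry the same allele, were left out, and 12 wild-type (WT) arrays of the same strain, stage and tissue were used only to set spread against spread and correlation against correlation.

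The labels call the samples biological replicates. The means of replicates 1 to 10 and of replicates 11 to 13 had been adjusted to each other, with a median absolute difference over probe sets of 1.33e-06. The largest difference was not examined. A shift of the mean alone would leave spread and correlation inside the 10 arrays as they were, but whether the adjustment also rescaled the set was not tested. All 9 components that 10 arrays can have were above 0, so no subgroups inside the set had been given exactly equal means. A partial adjustment or a change of scale inside the set would leave them above 0 and was not tested. Array medians lay between 4.64 and 4.76 on the log2 scale, and pairwise correlations across probe sets between 0.989 and 0.996. The number of arrays limits the precision, and in bulk tissue fewer cells of a type and less RNA per cell cannot be told apart.

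In the caudal hypothalamus, the mammillary neuroepithelium holds the dividing progenitors that later give rise to the mammillary body. Regional identity there is set by transcription factors, among them homeodomain and T-box proteins, under the influence of Sonic hedgehog from ventral midline cells and of Wnt signals from more dorsal and caudal tissue. Otp is a homeodomain factor needed for neuroendocrine neurons of the hypothalamus. Dlx1 and its neighbour Dlx2 are homeodomain factors of forebrain progenitors that give rise to GABAergic neurons. Tbx3 is a T-box factor of the ventral hypothalamus, Corin is a membrane serine protease that marks the floor plate, Gal encodes the neuropeptide galanin, and Lhx5 is a LIM-homeodomain factor.

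The level of Otp ran from 3.73 in replicate 3 over a median of 5.07 to 6.84 in replicate 1, in log2 RMA values (signals summarised per probe set by robust multi-array averaging). The level of Dlx1 ran from 4.5 in replicate 3 over a median of 5.97 to 7.02 in replicate 1. For Tbx3 the lowest, median and highest levels were 4.59, 5.65 and 6.77, in replicates 6 and 10 at the ends. The embryos at the ends of the range were thus shared by Otp and Dlx1 and were different ones for Tbx3. Corin ran from 5.10 in replicate 6 over 6.57 to 7.09 in replicate 5, with the other 9 arrays at 6.21 or higher. Gal ran from 4.99 over 5.39 to 6.01, and Lhx5 from 7.43 over 7.96 to 8.60.

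**Figure D1:**
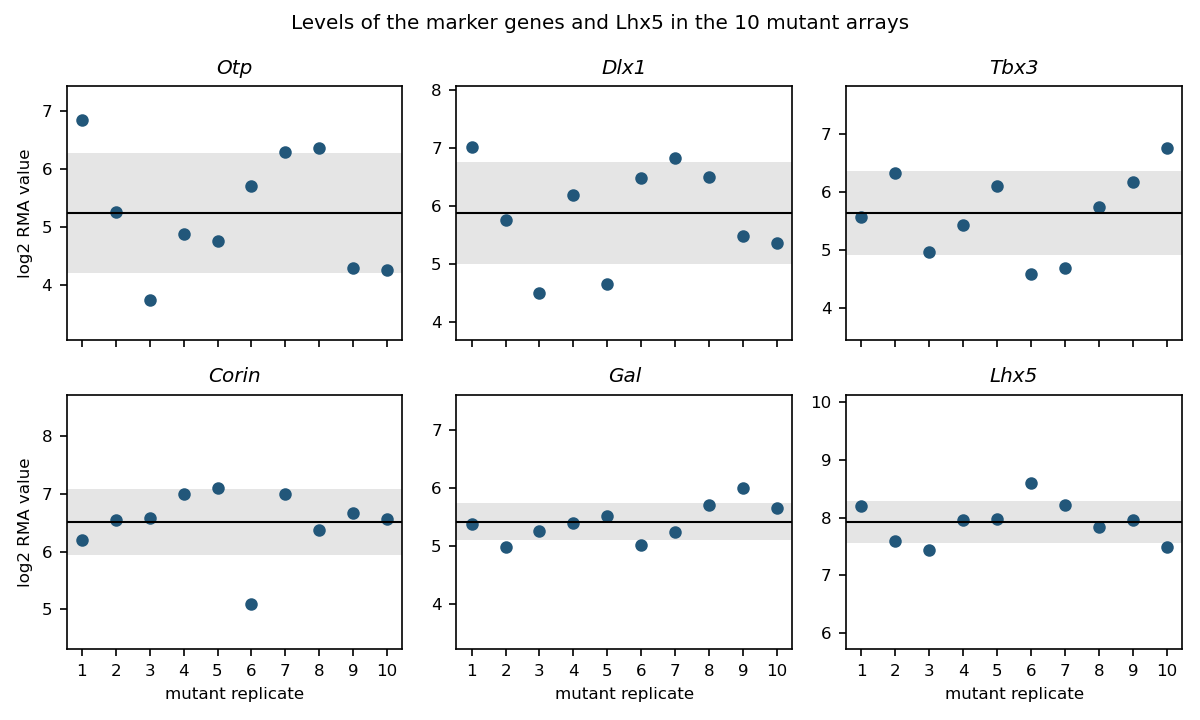
Log2 RMA values (y axis) of the 5 marker genes and Lhx5 in mutant replicates 1 to 10 (x axis, whose order carries no meaning), with the mean as a line and 1 SD on either side shaded. Every panel spans the same number of log2 units. Otp spreads from 3.73 to 6.84, and Corin in replicate 6 lies at 5.10, apart from the other 9 arrays.

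The spread of Otp was among the widest of all genes. Its SD of 1.04 (jackknife SE 0.17, n = 10) ranked 34 of 18820 named genes, and highest and lowest arrays differed 8.62-fold. The SD of Dlx1 was 0.88 (SE 0.15, rank 56), that of Tbx3 0.73 (SE 0.13, rank 105) and that of Corin 0.57 (SE 0.27, rank 218). Gal and Lhx5 varied less, with SDs of 0.32 (SE 0.07) and 0.36 (SE 0.09). The median over all named genes was 0.147, below the SD of each of these 6 genes. The SD of Corin was 0.30 without replicate 6.

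These genes varied between the wild-type arrays as well. Over the 12 wild-type arrays the SDs were 0.80 for Otp, 0.99 for Dlx1, 0.69 for Tbx3, 0.56 for Corin, 0.38 for Gal and 0.22 for Lhx5. None of the 6 log2 ratios of mutant over wild-type SD passed a permutation test of centred values (100000 resamples, adjusted p from 0.813 to 0.954). The ratio of Lhx5, the gene with the largest of them, was 0.74 (permutation p = 0.135 before adjustment). Several wild-type SDs leaned on wild-type replicate 10. Without it the ratio went from -0.168 to 0.643 for Dlx1 and from 0.037 to 0.618 for Corin. That of Gal went from -0.240 to 0.185 and that of Otp from 0.372 to 0.625. None of these passed (adjusted permutation p from 0.253 to 0.810). Genotype and array set cannot be told apart in this comparison, since the 10 arrays were adjusted as a set of their own.

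**Figure D2:**
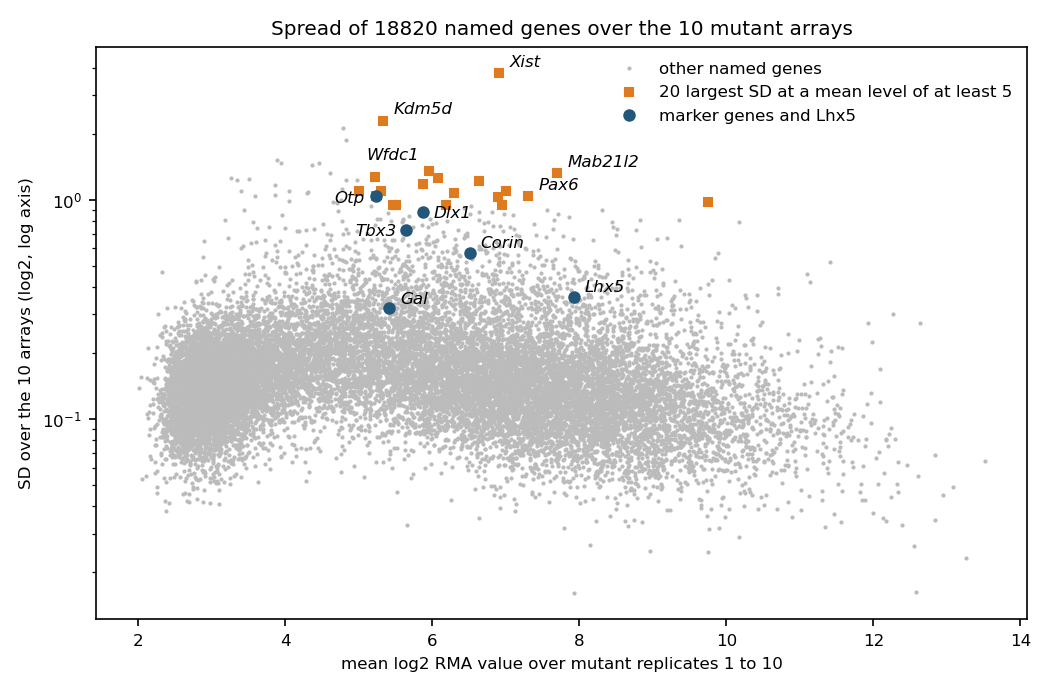
SD over mutant replicates 1 to 10 (y axis, log scale, log2 units) against mean log2 RMA value (x axis) for 18820 named genes. Squares are the 20 genes of largest SD with a mean level of at least 5, circles the marker genes and Lhx5. Otp lies among the squares at an SD of 1.04, and Gal at 0.32 lies closest to the bulk of the genes.

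Among genes with a mean level of at least 5, the 20 of largest SD were examined; Otp was number 14 of these and 34 of all named genes, so wider genes of lower level are not among them. Xist, the RNA expressed from the inactive X chromosome, had an SD of 3.78 and levels of 12.29 to 12.48 in replicates 7, 8 and 10 against 4.02 to 5.38 in the other 7 arrays. Kdm5d, a Y-linked demethylase gene, showed the opposite split, with a range of 1.85 to 6.90. Because these genes fell into separate clusters, no correlation of a marker gene with them is given. The 3 arrays with high Xist had Otp levels of 6.30, 6.36 and 4.26 and so lay near both ends of its range.

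Next in order, Wfdc1 (a secreted protease inhibitor gene) ran from 4.45 over 5.56 to 8.55, with an SD of 1.35. Mab21l2, a gene of eye and midbrain development, ran from 5.98 over 7.49 to 9.78. Pax3, a paired-box factor of dorsal neural tube, ran from 3.58 over 5.19 to 7.57, and its relative Pax7 had an SD of 0.95. These 3 genes, Wfdc1, Mab21l2 and Pax3, were all highest in replicate 3, the array with the lowest Otp, Dlx1 and Lhx5.

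Of the other genes in this set, Penk, which encodes enkephalin, had an SD of 1.25 and a range of 3.97 to 7.88. En2, a homeodomain factor of the midbrain-hindbrain border, ran from 3.72 over 5.06 to 7.09 (SD 1.1). Pax6, a paired-box factor of dorsal forebrain and eye, ran from 5.07 over 7.32 to 8.46 (SD 1.04). The signal genes Wnt3 (SD 1.1), Fgf15 (SD 1.09) and Wnt7b (SD 0.95) were among the 20 as well. So were Gm3893 (SD 1.21), Cemip (1.17), a gene of hyaluronan breakdown, Hpse2 (1.08), Hsd3b6 (1.03), a steroid dehydrogenase gene, Erdr1 (0.97), Gpr50 (0.95) and Csf2rb (0.94), a cytokine receptor gene of blood cells.

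By lists, 10 of 13 measured mammillary transcription factors had an SD above the 90th percentile of all named genes, with a median SD of 0.36 against 0.15 over all genes. For tuberal and anterior hypothalamus this held for 11 of 17, for the Dlx and GABA programme for 11 of 12, for floor plate and ventral midbrain for 14 of 17 and for neuronal differentiation for 14 of 14. In lists of other cell types it held for 14 of 16 mesenchyme and neural crest genes, 8 of 9 erythroid, 10 of 14 ectoderm and 8 of 12 macrophage genes. It held for 0 of 13 cell cycle genes (median SD 0.12) and 0 of 8 caudal Hox genes (median SD 0.13). The wild-type median SDs of these lists were 0.27 for mammillary factors, 0.37 for tuberal and anterior hypothalamus, 0.58 for the Dlx programme, 0.36 for floor plate and 0.43 for neuronal differentiation. Whether a list differed in spread from wild type was not tested.

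Tissue markers were measured in every array. Sim1, a bHLH-PAS factor required for the mammillary body, ran from 8.11 to 8.98, Foxb1, a forkhead factor of the same region, from 6.13 to 6.99, and Nkx2-1, the homeodomain factor of the ventral hypothalamus, from 6.56 to 8.0. The mean level of the 8 caudal Hox genes, which mark hindbrain and spinal cord, stayed between 3.14 and 3.22. Markers of other cell types varied between embryos: the mean of 9 erythroid genes ran from 7.35 to 9.13, of 16 mesenchyme and neural crest genes from 7.10 to 8.05, of 14 surface and oral ectoderm genes from 4.91 to 5.91, of 12 macrophage genes from 4.95 to 5.64, of 12 endothelial genes from 7.06 to 7.45 and of 8 muscle and heart genes from 3.66 to 4.51. Replicate 3 had the lowest erythroid, mesenchyme and macrophage means. Their part in the spread of the marker genes was not tested, but fits with several of these means as covariates are given beside the correlations.

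Otp and Dlx1 went up and down together over the 10 arrays. Their correlation was r = 0.887 (permutation p = 0.00087, adjusted over 15 pairs 0.0130, n = 10) and rho = 0.939 (permutation p = 0.00021, adjusted 0.00315). Replicates 1, 7 and 8 were high and replicates 3, 9 and 10 low for both genes, while replicate 5 had a mid-range Otp of 4.76 and a low Dlx1 of 4.64. It was 0.792 without the 2 arrays farthest from the median of Otp (adjusted permutation p = 0.190) and ran from 0.844 to 0.940 with 1 array left out (adjusted permutation p of 0.0618 without replicate 1). With Xist level, erythroid, mesenchyme or ectoderm mean as a covariate, the partial correlation was 0.876, 0.897, 0.860 and 0.867. In the 12 wild-type arrays r was 0.755 (adjusted permutation p = 0.0490), and the difference between the sets did not pass (permutation p = 0.582, adjusted 0.829).

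The other 14 pairs among the 6 genes did not pass (adjusted permutation p from 0.298 to 0.591). The largest in size were Dlx1 with Lhx5 (r = 0.639, rho = 0.636), Otp with Lhx5 (r = 0.608, rho = 0.624) and Tbx3 with Lhx5 (r = -0.578, rho = -0.576). The last of these rested on which arrays were used: without replicate 3 it was -0.884 (adjusted permutation p = 0.0244), without replicate 6 it was -0.379, and without the 2 arrays farthest from the median of Tbx3 it was -0.153. Otp and Tbx3 had r = -0.328 and Dlx1 and Tbx3 r = -0.375. For none of the 15 pairs did the difference from wild type pass (adjusted permutation p from 0.829 to 0.992). With so few arrays this does not show that the correlations were alike. Otp with Lhx5, for example, had r = -0.038 in wild type.

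Each gene was next set against every transcript cluster on the array in limma, with the level of the marker as the predictor and Benjamini-Hochberg adjustment over 28939 clusters. Slopes are log2 units of the gene per log2 unit of the marker. For Otp, 4 clusters rose with it (0.0138% of those tested) and 0 fell (0%), where 1353 and 682 had an unadjusted p below 0.05. Tmem35a, a chaperone gene of acetylcholine receptors, ran from 5.67 over 6.19 to 6.70 and rose with a slope of 0.35 (SE 0.04, adjusted p = 0.0290). Dlx1as, the antisense RNA of Dlx1, ran from 2.53 over 3.20 to 3.80 with a slope of 0.37 (SE 0.04, adjusted p = 0.0290). Palmd (slope 0.35, adjusted p = 0.0371) and Sox1ot (slope 0.38, adjusted p = 0.0403) also rose, where Palmd encodes palmdelphin and Sox1ot is a long noncoding RNA. All 4 were higher in replicates 1, 7 and 8 than in replicates 3, 9 and 10.

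The Otp calls were sensitive to the set of arrays. No cluster was called when any one of replicates 1, 3, 6, 7, 8, 9 or 10 was left out, and 24 were called without replicate 5, so each of the 4 genes stayed called in only 2 or 3 of 10 such fits. No cluster was called either with arrays centred on their medians, with the erythroid or the ectoderm mean as a covariate, with ranks of the Otp level or over all probe sets. Dlx1as (chromosome 2, 71530638 to 71537891) overlaps Dlx1 (71528113 to 71533981), and Sox1ot (chromosome 8, 12385771 to 12436732) spans Sox1 (12395519 to 12399555), all in GRCm38.p6. Sox1 itself, a SoxB factor of neural progenitors, had r = 0.48 with Otp, against 0.94 for Sox1ot. The counting of signal on overlapping strands was not tested.

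For Dlx1, 1 cluster rose (0.00346%) and 0 fell (0%), where 931 and 487 had an unadjusted p below 0.05. The called gene was Dlx2, which ran from 5.73 over 6.96 to 7.87 with a slope of 0.83 (SE 0.08, adjusted p = 0.00827). Dlx2 lies beside Dlx1 on chromosome 2 (71543408 to 71546754). Its call was kept in 9 of 10 fits with 1 array left out and lost without replicate 3 (adjusted p = 0.0638). With the ectoderm mean as a covariate 0 clusters were called with Dlx1, so the call was lost there too (1579 had an unadjusted p below 0.05). Below the threshold, Fezf1, a zinc-finger factor of the forebrain, had r = 0.92 (adjusted p = 0.0606), Sp9, a zinc-finger factor of GABAergic lineages, r = 0.92 (adjusted p = 0.113), and Gsx2, a homeodomain factor of ventral telencephalon, r = 0.89 (adjusted p = 0.171).

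Otp and Dlx2 both encode homeodomain factors, and Dlx2 is the gene called with Dlx1. In the Otp fit Dlx2 did not pass (r = 0.87, adjusted p = 0.118). The stretches of 250 bases before their RefSeq transcription starts are given, 5′ to 3′, with each TAAT (the core letters bound by many homeodomain proteins, searched on both strands as TAAT or ATTA) in capitals. The Otp stretch is chr13:94875386-94875635 on the plus strand and the Dlx2 stretch chr2:71546755-71547004 on the minus strand, both of GRCm38.p6.
Otp: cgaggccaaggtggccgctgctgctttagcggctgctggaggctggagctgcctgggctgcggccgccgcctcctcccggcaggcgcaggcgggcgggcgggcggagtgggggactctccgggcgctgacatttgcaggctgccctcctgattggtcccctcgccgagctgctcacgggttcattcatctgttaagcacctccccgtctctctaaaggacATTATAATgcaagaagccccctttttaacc
Dlx2: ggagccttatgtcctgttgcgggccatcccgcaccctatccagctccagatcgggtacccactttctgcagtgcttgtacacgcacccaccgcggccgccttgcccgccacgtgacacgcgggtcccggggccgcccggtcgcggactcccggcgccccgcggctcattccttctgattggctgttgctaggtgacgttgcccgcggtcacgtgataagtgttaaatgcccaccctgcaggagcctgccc
The Otp stretch holds 2 matches side by side, ATTA and then TAAT, which begin 30 and 26 bases before the start, and the Dlx2 stretch holds 0. Of 32851 such stretches of all genes, 54.9% hold at least 1, so a match is common and describes the letters only.

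Gene lists were described by their members' correlations with each marker. Of the 12 measured members of the Dlx and GABA programme, 10 had a positive r with Otp, with a median r of 0.62 against 0.06 over all named genes, and the list mean had r = 0.92 with Otp (0.90 to 0.94 with 1 array left out). These and the other correlations with list means are descriptions over the same 10 arrays. The wild-type values given for lists were not examined with single arrays left out. Dlx5 (r = 0.84) and Gad2 (r = 0.65), a GABA synthesis gene, were at the upper side, and Sp8 at -0.67 was at the other end. No member passed in the Otp fit, and with an unadjusted p below 0.05, 7 lay on the rising side and 1 on the falling side. Of all named genes 5.4% rose and 2.33% fell with Otp at that limit. In wild type the median r was 0.68.

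The 12 other mammillary factors had a median r of 0.27 with Otp, 9 of them above 0, and a list mean with r = 0.65, and no member passed. Emx2, a homeodomain factor of forebrain, had r = 0.76 with Otp (adjusted p = 0.423) and 0.79 with Dlx1. Barhl1, a homeodomain factor of mammillary and subthalamic cells, had r = 0.65 with Otp. Foxb1 had r = -0.26 with Otp and Sim1 0.24.

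No member of the following lists passed with Otp. All 8 telencephalic genes had a positive r (median 0.59), and 13 of 17 tuberal and anterior hypothalamic genes did (median 0.29), with Fezf2 at 0.81 and the homeodomain factor Nkx2-2 at 0.79. Of 8 optic and pigment genes 7 had a positive r (median 0.71), and with Dlx1 7 did too (median 0.63), in both cases a median above that of the Dlx and GABA list (0.62 and 0.60). Of 12 macrophage genes 11 had a positive r with Otp (median 0.47, list mean 0.62), 4 with an unadjusted p below 0.05, and their part in the Otp relations was not tested. Of all named genes 5.4% rose with Otp at that limit. Dct, an enzyme of melanin synthesis, ran from 2.69 over 4.08 to 5.61 and had r = 0.82 with Otp, and Pmel, a melanosome protein, ran from 2.87 over 3.97 to 5.73. These pigment genes were highest in replicates 1 and 2. The median r of the telencephalic list was 0.24 in wild type and that of the pigment list 0.08, and these differences were not tested. The caudal Hox mean, which stayed between 3.14 and 3.22 in all 10 arrays, had r = 0.82 with Otp as well, so a list that hardly varied could give a correlation of this size.

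No cluster fell with Otp. On the falling side below the threshold, Lin28a, an RNA-binding protein that holds back let-7 maturation, ran from 6.49 over 7.36 to 8.05 and had r = -0.88 (adjusted p = 0.118). Sall4, a zinc-finger factor of pluripotent cells, had r = -0.89 and Nr6a1, an orphan nuclear receptor of early embryos, r = -0.88 (adjusted p = 0.134 for both). Wnt1, the signal of the midbrain-hindbrain border, had r = -0.83 (adjusted p = 0.203). Replicates 3, 9 and 10, low in Otp, had Lin28a levels of 8.02, 8.05 and 7.88, the 3 highest of the 10.

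In the Tbx3 fit 6 clusters rose (0.0207%) and 1 fell (0.00346%), where 730 and 625 had an unadjusted p below 0.05. Fgf10, a growth factor made in the infundibulum and in other budding tissues, ran from 4.41 over 5.44 to 6.96 and rose with a slope of 1.08 (SE 0.09, adjusted p = 0.00146). It kept its call in 10 of 10 fits with 1 array left out. St14, a membrane protease of epithelia, ran from 5.22 over 5.90 to 6.50 (slope 0.57, SE 0.06, adjusted p = 0.0127) and kept its call in 7 of 10. Both genes were lowest in replicate 6 and among the highest in replicate 10, as Tbx3 was.

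The other calls in the Tbx3 fit had an adjusted p of 0.0381 each and were kept in 1 of 10 fits with 1 array left out. They were the tight junction genes Cldn6 (6.02 over 7.64 to 8.59) and Cldn7 (4.16 over 4.51 to 5.04), the desmosome gene Dsp (4.95 over 6.14 to 6.80) and Barx1, a homeodomain factor of the jaw and stomach (3.60 over 4.77 to 6.39). Rnf223, a RING-finger gene, was the cluster that fell (5.83 over 6.26 to 6.72, slope -0.40). The total of 7 called clusters became 1 without replicate 3, 6 or 10, the lowest of the 10 such fits.

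All 14 members of the surface and oral ectoderm list had a positive r with Tbx3 (median 0.85 against -0.01 over all named genes), 10 had an unadjusted p below 0.05 and 2, Cldn6 and Cldn7, passed. Of all named genes 2.92% rose with Tbx3 at the unadjusted limit. The list mean had r = 0.96 with Tbx3 (0.96 to 0.98 with 1 array left out). Krt8, a keratin, had r = 0.90 (adjusted p = 0.112), Epcam, an epithelial adhesion gene, 0.90 (adjusted p = 0.146), and Pitx1, a homeodomain factor of oral ectoderm, 0.89 (adjusted p = 0.110). Krt5 and Krt14, keratins of stratified skin, had r of 0.15 and 0.35 and ran only from 3.06 to 3.45 and from 3.33 to 4.01. In wild type 13 of 14 members had a positive r (median 0.69).

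With the ectoderm mean as a covariate, chosen after the data were seen, 0 clusters were called in the Tbx3 fit (1423 at an unadjusted p below 0.05). The covariate contains Cldn6 and Cldn7 and had r = 0.96 with Tbx3. Of tuberal genes, Rax, a homeodomain factor of the ventral hypothalamus and eye, had r = 0.69 with Tbx3, and Tbx2, its close relative, had 0.61, and neither passed. The median r of the 16 other tuberal and anterior hypothalamic genes was 0.07. Foxf1, a forkhead gene of gut mesoderm, had r = 0.83, and the hedgehog ligand Shh, which ran from 9.01 to 9.98, had 0.57. The sources of the epithelial RNA were not tested.

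**Figure D3:**
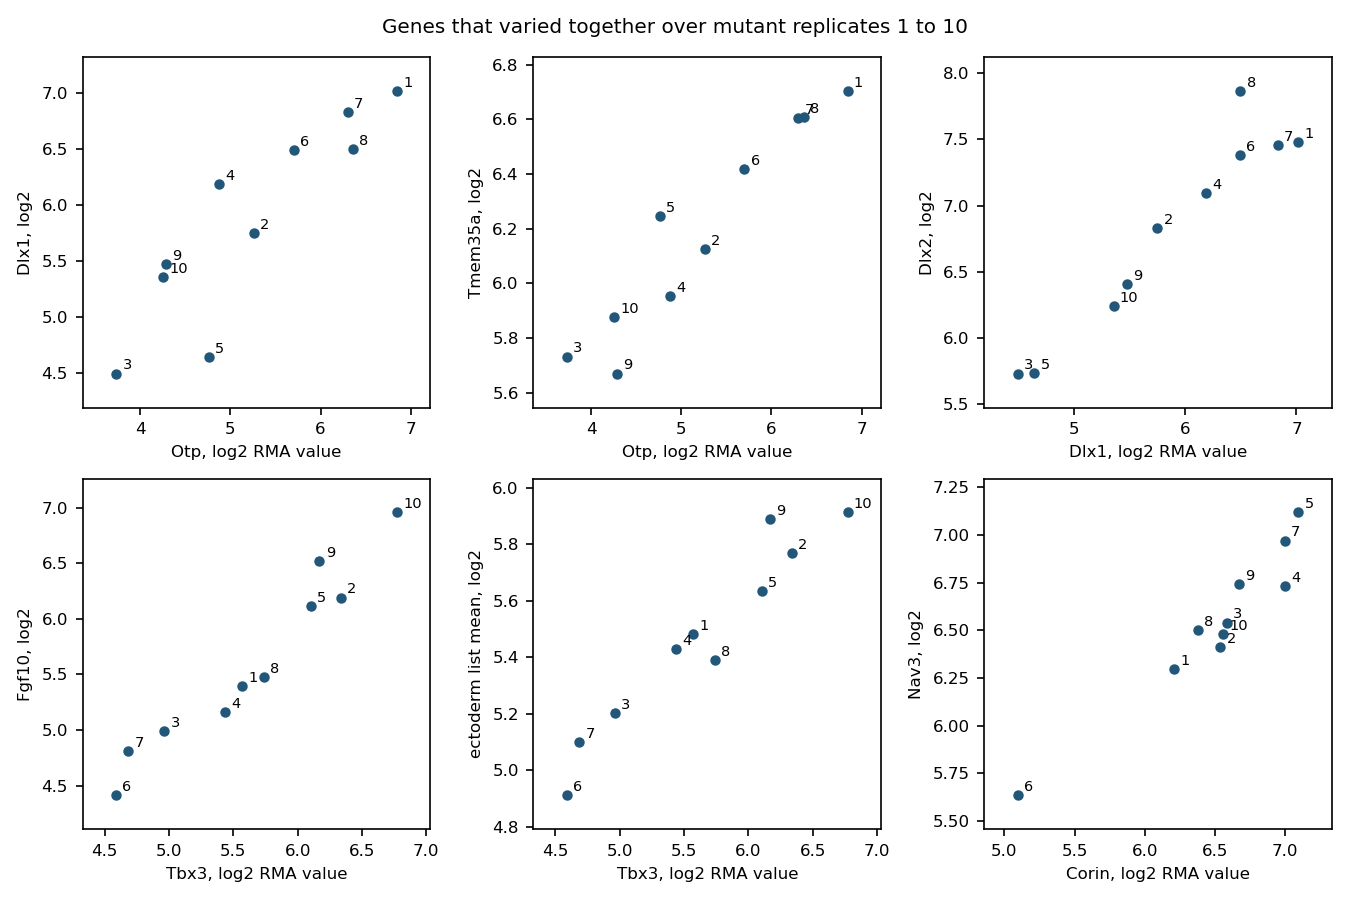
Pairs of genes over mutant replicates 1 to 10, each point an array marked by its replicate number, both axes in log2 RMA values; in the lower middle panel the y axis is the mean of 14 surface and oral ectoderm genes. Otp with Dlx1 (r = 0.887), Otp with Tmem35a, Dlx1 with Dlx2, Tbx3 with Fgf10 and Tbx3 with the ectoderm mean (r = 0.96) are spread along their lines, and in Corin with Nav3 replicate 6 lies apart at the lower end.

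In the Corin fit 1 cluster rose (0.00346%) and 0 fell (0%), where 816 and 1064 had an unadjusted p below 0.05. Nav3, a neuron navigator gene, ran from 5.64 in replicate 6 over 6.52 to 7.12 and rose with a slope of 0.68 (SE 0.07, adjusted p = 0.0230). The call was kept in 3 of 10 fits with 1 array left out and was lost without replicate 6 (adjusted p = 0.999). The correlation itself was at least 0.916 in all 10 of these fits. No cluster was called with Corin when Xist level, the erythroid or the mesenchyme mean was a covariate, with ranks of the Corin level or over all probe sets. Vtn, which encodes vitronectin, came next (r = 0.94, adjusted p = 0.0802).

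Of the other 16 floor plate and ventral midbrain genes 15 had a positive r with Corin (median 0.60 against 0.00 over all named genes), 9 with an unadjusted p below 0.05, and none passed. Of all named genes 3.5% rose with Corin at the unadjusted limit. The list mean had r = 0.83 (0.65 to 0.90 with 1 array left out). Ntn1, the axon guidance cue netrin of the floor plate, had r = 0.86, Spon1, an extracellular matrix gene of the floor plate, 0.84, Slit2, a midline repellent, 0.80, and Foxa2, the forkhead factor that specifies floor plate, 0.71. Msx1, a homeodomain factor of the same list, went the other way with r = -0.59. Th, the tyrosine hydroxylase gene, had r = 0.08, so the dopaminergic enzyme of the list was not among the genes near Corin. Th instead had r = 0.88 with Otp. In wild type the floor plate mean had r = 0.85 with Corin, whose wild-type SD leaned on wild-type replicate 10. Of differentiation genes, 14 of 14 neuronal differentiation genes had a positive r (median 0.51, list mean 0.64, 5 with an unadjusted p below 0.05). All 13 cell cycle genes had a negative one (list mean -0.58, rho -0.33). Without the 2 arrays farthest from the median of Corin, the 2 list means had r of 0.39 and -0.05. The cell cycle mean was highest in replicate 6 (10.22), the array with the lowest Corin. None of these passed, and their part in the floor plate values was not tested.

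Replicate 6 stood apart in other genes as well. Rspo3, a secreted amplifier of Wnt signals, was 7.45 there against 4.55 to 5.27 in the other 9 arrays, and Wnt3 was highest there at 6.92. Its floor plate mean was 6.81 against 7.09 to 7.57 elsewhere. Penk at 3.97 was lowest there too, so the r of 0.74 between Penk and Corin shares this array. The neuropeptide list mean had r = 0.86 with Corin (0.71 to 0.95 with 1 array left out), while the median over its 14 members was -0.09, and Penk and Sst (r = 0.72), the somatostatin gene, were the 2 members with an unadjusted p below 0.05.

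For Gal, 0 clusters rose (0%) and 0 fell (0%) in limma, where 1108 and 972 had an unadjusted p below 0.05, and limma-trend gave 0 too. The smallest adjusted p was 0.186. It was shared by Pax6 (r = -0.91) and Fam131b (r = -0.92) on the falling side and, on the rising side, by Frem1, a basement membrane gene (r = 0.91), and Itpr3, a calcium channel gene (r = 0.93). Replicate 9 had the highest Gal (6.01) and the lowest Pax6 (5.07), and replicate 2 the lowest Gal (4.99) with a Pax6 of 8.40.

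Of 18 Wnt pathway genes 6 had a positive r with Gal (highest 0.48) and the others a negative one (median -0.43 against -0.03 over all named genes). At an unadjusted p below 0.05, 3.78% of all named genes fell with Gal and 4.02% rose. The list mean had r = -0.84 with Gal (-0.91 to -0.76 with 1 array left out), 7 members had an unadjusted p below 0.05 on the falling side and 0 on the rising side, and none passed. Among them were the ligands Wnt3 (r = -0.83) and Wnt3a (r = -0.77), the target Axin2 (r = -0.73) and the inhibitor Sfrp2 (r = -0.87). Of the hedgehog pathway, the ligand Shh had r = 0.67 and its receptor Ptch1 0.66, whereas the co-receptor Gas1 had -0.87 and the transcription factor Gli2 -0.70. The 13 other neuropeptide genes had a median r of -0.03 with Gal. Several lists had values of like size: of 16 thalamic and pretectal genes 7 had an unadjusted p below 0.05 on the falling side (list mean -0.75), and all 5 notochord (list mean 0.75), 12 endothelial (0.66), 16 mesenchyme and neural crest (0.54) and 14 ectoderm genes (0.57) had a positive r. The part of these cell types in the Gal values was not tested. The Wnt mean had r = -0.30 with Gal in wild type, and the difference was not tested.

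For Lhx5, 0 clusters rose (0%) and 0 fell (0%) in limma and in limma-trend, where 570 and 346 had an unadjusted p below 0.05 in limma. The smallest adjusted p rounded to 1.0. Lrp8, a reelin receptor gene, had the smallest p on the rising side (r = 0.94), and Tmem17, a transmembrane protein of cilia, on the falling side (r = -0.91). Of the 12 other mammillary factors 10 had a positive r with Lhx5 (median 0.25), with Emx2 at 0.78. All 14 ectoderm genes had a negative one (median -0.45), and 5 of them had an unadjusted p below 0.05. Of all named genes 1.14% fell with Lhx5 at that limit, and their median r was 0.02.

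**Figure D4:**
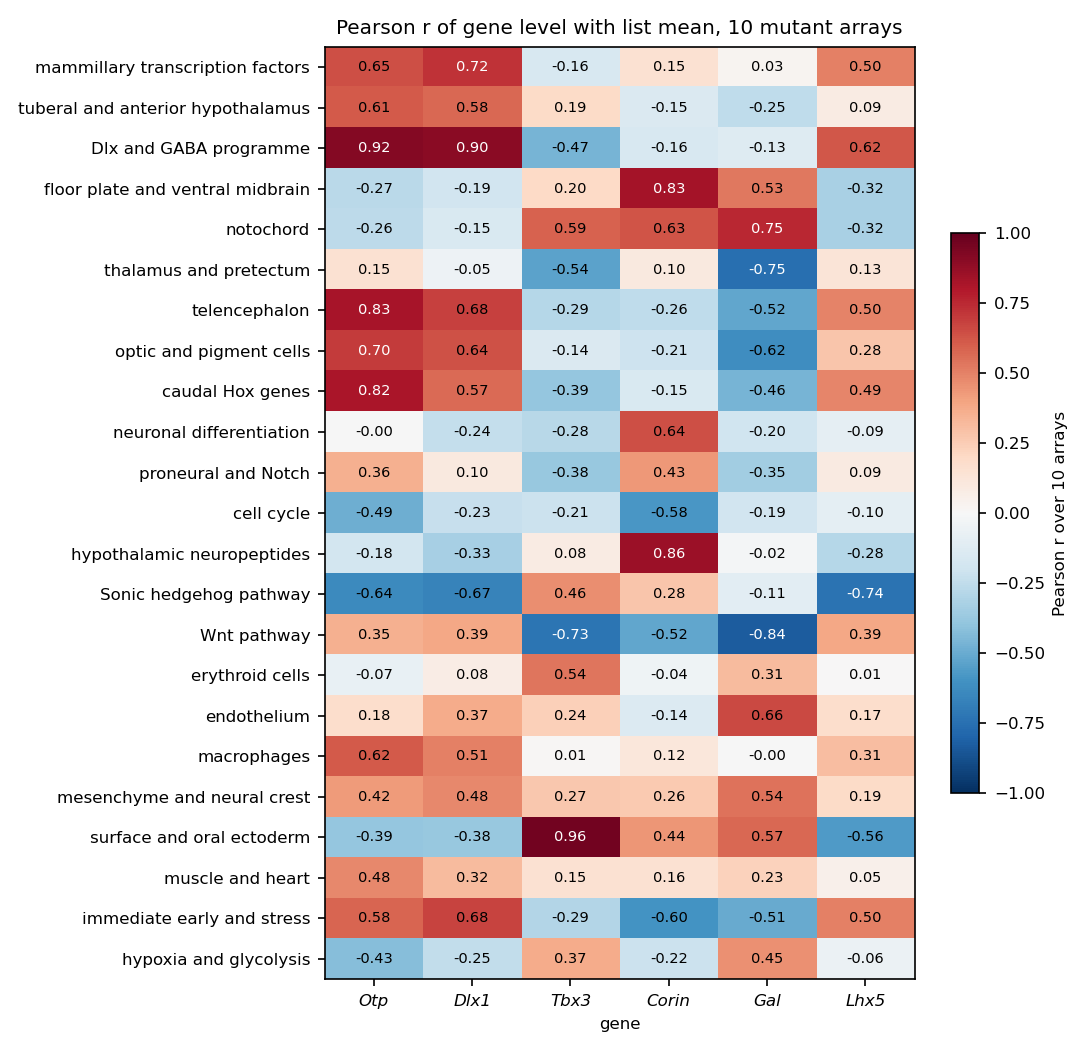
Pearson r over mutant replicates 1 to 10 between the level of each of the 6 genes (columns) and the mean level of each gene list (rows, the column's own gene left out of the list), with the colour scale from -1 to 1. Otp and Dlx1 share their high values with the Dlx and GABA programme (0.92 and 0.90), Tbx3 has its highest value with surface and oral ectoderm (0.96), Corin with hypothalamic neuropeptides (0.86) and floor plate (0.83), and Gal its lowest with the Wnt pathway (-0.84).

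The 13 genes called with Otp, Dlx1, Tbx3 or Corin were then examined in the 12 wild-type arrays, which had no part in the calls; this step was chosen after the data were seen. Of 13 relations 10 passed a permutation test there, with adjustment over the 13. These 10 are not all separate results. Cldn6 and Cldn7 belong to the ectoderm list, whose mean had r = 0.82 with Tbx3 in wild type. Dlx1 and Dlx2 lie beside each other. The share of all named genes that would pass such a test with these markers in wild type was not counted. Their median wild-type r was 0.012 with Otp, -0.016 with Dlx1, 0.008 with Tbx3 and -0.0006 with Corin. Dlx1 with Dlx2 had r = 0.973 and Tbx3 with Fgf10 r = 0.918 (adjusted permutation p = 6.5e-05 for both, from the smallest p that 100000 permutations can give). Corin with Nav3 had 0.877 (adjusted 0.00186), Otp with Dlx1as 0.807 and Otp with Sox1ot 0.797 (both adjusted 0.00438), and Tbx3 with Cldn7 0.829 (adjusted 0.00322). The relations that did not pass were Otp with Palmd (r = 0.470, adjusted permutation p = 0.148), Tbx3 with Barx1 (r = 0.449, adjusted 0.185) and Tbx3 with Rnf223 (r = -0.319, adjusted 0.312).

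The rank correlations gave the same division of the 13, with adjusted permutation p from 0.00156 to 0.0258 for the 10 and from 0.0663 to 0.457 for the other 3. Without the 2 wild-type arrays farthest from the median of the marker, r of the 10 lay between 0.585 and 0.920 and that of Tbx3 with Rnf223 was 0.0671. Palmd stood at 0.777 with Otp under this exclusion, so its lower wild-type value rested on the arrays at the ends. For the 13 called relations the difference between the sets was not tested.

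**Figure D5:**
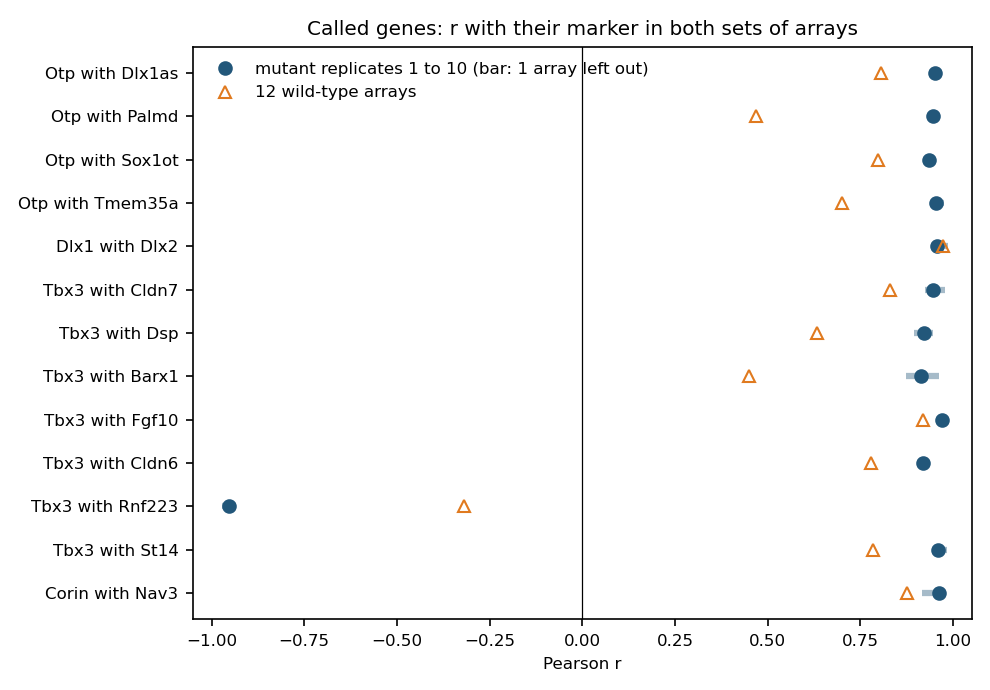
Pearson r (x axis) of each called gene with its marker over mutant replicates 1 to 10 (circles, with a bar for the range when 1 array is left out) and over 12 wild-type arrays (triangles). The triangles of Palmd at 0.470, Barx1 at 0.449 and Rnf223 at -0.319 lie farthest from their circles.

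Principal components over 18818 named genes gave the main axes of variation, as descriptions of these values. The first held 22.7% of the variance. Slc17a6, a glutamate transporter of neurons (r = 0.98 with the component), Nrxn3, a synaptic adhesion gene (0.94), and Gad2 (0.90) lay at its upper end, and Myc, the growth regulator, at its lower end (-0.91). The mean of proneural and Notch genes had r = 0.91 with it, of neuronal differentiation genes 0.82 and of cell cycle genes -0.75. The hypoxia and glycolysis mean had r = -0.73 (rho -0.88) and the caudal Hox mean 0.73. Replicate 7 was at the upper end and replicate 10 at the lower.

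The second component held 19.7%. Xist (r = 0.81) and the mesenchyme mean (0.94) lay at its upper end, and Kdm5d (-0.81), Fgf15 (-0.82), Wfdc1 (-0.76) and Pax3 (-0.75) at its lower end. Xist had the largest positive loading (0.247) and Kdm5d the largest negative one (-0.148), so sex-linked genes had the largest loadings on this axis. Replicates 7, 8 and 10, the arrays with high Xist, were highest on it. They also had the highest mesenchyme means (7.97, 8.05 and 8.01), so sex and mesenchyme content cannot be told apart on it. Replicate 3 was lowest on this axis and replicate 8 highest. The third held 13.7%, with the pigment list mean (0.86), Wnt7b (0.83) and Pax6 (0.68) at the upper end and En2 (-0.58) and Pax5 (-0.39), a partner of En2 at the midbrain-hindbrain border, at the lower end. On this axis replicates 2 and 3 were farthest apart. The list means of Otp's neighbours were split over these axes: the Dlx and GABA mean had r of 0.50, 0.38 and 0.49 with the first 3 components, and the ectoderm mean that followed Tbx3 had -0.37, 0.31 and -0.18.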

How the data were processed

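Total RNA of 25 samples was measured, 1 array each. The deposited log2 values were made by the authors with RMA, and per the labels' processing notes with Affymetrix Expression Console 1.0, affy and R 2.7.0. How the array sets were adjusted to each other is not given in the sources used here. Of 35556 probe sets, 14 cells above 14 (32.32 to 10464), outside the log2 range, were set missing, 4 of them in the 10 arrays and 2 of these in tested clusters. Columns with such cells hold log2 values otherwise.

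Unannotated probe sets (6616) were left out, which left 28940. Of these 21218 had a single symbol, 1881 several and 5841 none, and 21185 (99.8%) matched GRCm38.p6 by Entrez number. The brightest cluster per symbol gave 18820 named genes. Each marker was used as a predictor in limma 3.58.1 (R 4.3.3), after a test on simulated data, with Benjamini-Hochberg adjustment at 0.05. Marker pairs, SD ratios and wild-type relations used two-sided permutation tests with 100000 resamples (Python 3.11.15, NumPy 2.4.6, SciPy 1.17.1, figures in matplotlib 3.10.9). P-values measure only the spread between these samples, which may be technical in part. Named genes were the 6 markers, per marker the 10 of smallest p in each direction, the 20 of largest SD with a mean level of at least 5, the 10 of largest loading at either end of the first 3 components, and up to 4 members per list by SD and by p in each fit. Outside that rule, Sp8, Krt5 and Ptch1 were named after their values were seen. Members and lists were chosen with earlier results of these data known. The ectoderm covariate and the wild-type check of called genes were added after the data were seen. Alternatives covered normalization, covariates, ranks, limma-trend, all probe sets and single arrays left out. Mutant replicates 11 to 13 were left out because their values are a separate adjusted set.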

Additional observations from a re-analysis of the deposited data

Results flagged for a closer look

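For 63 values (38 genes and 25 list means), Dixon's criterion was used to look for an array standing apart. It picked out 3, where chance picks about 1 in 20. The count of 3 is near that share, so the picks cannot be told from chance. Corin was 5.10 in replicate 6, below the next lowest level of 6.21, a gap of 0.556 of the whole range. The mean of the muscle and heart list was 4.51 in replicate 1, above the next of 4.0, a gap of 0.597 of the range. The mean of the hypoxia and glycolysis list was 8.17 in replicate 9, above the next of 7.74, a gap of 0.545.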

How the results depend on the processing

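The number of clusters called depended on the setting (4 with Otp, 1 with Dlx1, 7 with Tbx3, 1 with Corin and 0 with Gal as reported). With arrays centred on their medians Otp had 0 and Gal 1. Limma-trend gave 1 for Otp, 3 for Dlx1 and 2 for Corin. With Xist level as a covariate the numbers were 7 for Otp, 2 for Dlx1, 2 for Tbx3 and 0 for Corin, with the erythroid mean 0 for Otp, 1 for Tbx3 and 0 for Corin, with the mesenchyme mean 2 for Otp, 4 for Dlx1, 2 for Tbx3 and 0 for Corin, and with the ectoderm mean 0 for Otp, 0 for Dlx1 and 0 for Tbx3. Ranks of the marker level gave 0 for Otp, 4 for Dlx1, 3 for Tbx3 and 0 for Corin, and all probe sets 0 for Otp, 2 for Tbx3 and 0 for Corin. Leaving out 1 array gave 0 to 24 for Otp, 0 to 4 for Dlx1, 1 to 6 for Tbx3 and 0 to 2 for Corin. The cause was not tested.

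Without the 2 arrays farthest from the median, r was 0.792 for Otp with Dlx1 and turned sign for Tbx3 with Corin (-0.159), Corin with Gal (-0.117) and Corin with Lhx5 (0.173). With the ectoderm mean as a covariate, r turned to 0.186 for Otp with Tbx3, 0.0328 for Dlx1 with Gal, -0.337 for Tbx3 with Corin, -0.197 for Tbx3 with Gal and 0.153 for Gal with Lhx5. With 1 array left out, r ran from 0.844 to 0.940 for Otp with Dlx1, -0.208 to 0.570 for Tbx3 with Corin, -0.884 to -0.379 for Tbx3 with Lhx5, -0.0665 to 0.447 for Corin with Gal, -0.618 to 0.234 for Corin with Lhx5 and -0.449 to 0.114 for Gal with Lhx5. The log2 SD ratio ran from -0.34 to 0.64 for Dlx1, -0.093 to 0.263 for Tbx3, -0.885 to 0.618 for Corin and -0.555 to 0.185 for Gal. The difference from wild type in Fisher's z ran from -0.121 to 0.754 for Otp with Dlx1, -0.118 to 0.398 for Otp with Tbx3, -0.606 to 0.530 for Otp with Corin, -0.243 to 0.411 for Otp with Gal, -0.281 to 0.720 for Dlx1 with Corin, -0.0958 to 0.764 for Tbx3 with Corin, -0.856 to 0.115 for Corin with Gal, -0.265 to 0.762 for Corin with Lhx5 and -0.741 to 0.112 for Gal with Lhx5. None of the ratios, differences or pairs that turned sign had passed the threshold. No paired analysis was possible because the relations lie inside 1 group and replicate numbers tie no mutant to a wild-type sample.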
